A study of Homo sapiens with 6 samples.

Results

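The translation initiation factors (eIF) and elongation factors (eEF) are described here across control and FTO-knockdown 253J cells. The set holds 45 listed genes, found by matching the Ensembl IDs of the count tables to gene symbols, out of 60483 genes listed in each table. It is made up of 36 initiation factor genes, EIF5A, the elongation factors EEF1A1, EEF1B2, EEF1D, EEF1G and EEF2, the kinase EEF2K, and PABPC1 and TPT1, which are often studied beside them. Of the 45 members, 44 passed the filter on low counts, among 14965 genes tested, and EEF1G did not.

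RNA-seq was carried out on a human cell line from bladder cancer, 253J, in 3 control libraries (replicates 1, 2 and 3) and 3 FTO-knockdown libraries (replicates 4, 5 and 6). FTO removes m6A, a methyl mark on adenosines, from RNA. The labels name control siRNA and FTO siRNA, whereas the study's methods describe shRNA against FTO, and a single cell line was used in both groups. Nothing in the sources states that the replicates were separate cultures, so the p-values reflect no more than the spread among these libraries, which may be technical. Total counts were between 10991789 and 19891269 per library. Values are given as CPM, the count of a gene scaled to the library size after TMM normalization, and log2 fold changes are FTO-knockdown over control from edgeR's quasi-likelihood test, with p-values adjusted over all genes tested and a threshold of 0.05.

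FTO itself stood at 31.8, 21.4 and 31.2 CPM in the controls and at 20.2, 20.7 and 15.7 CPM in the FTO-knockdown libraries. The groups did not overlap, but the lowest control lay close to the highest FTO-knockdown library, and the log2 fold change was -0.57 ± 0.16 (SE, adjusted p = 0.0209 from edgeR). Of 12 urothelial markers, 5 reached 1 CPM in any library, with PPARG and FOXA1 present, UPK1B at 0 and GATA3, KRT5 and TP63 under 1 CPM. KRT20 stood at 4.56, 4.29 and 3.88 CPM in the controls and at 20.2, 20.2 and 27.6 CPM in the FTO-knockdown libraries, with a log2 fold change of 2.43 ± 0.17 (SE, adjusted p = 4.6e-05 from edgeR). FOXA1 had a log2 fold change of -0.31 ± 0.11 (SE, adjusted p = 0.0492 from edgeR), close to the threshold. Its groups overlapped, with control replicate 2 at 89.1 CPM and FTO-knockdown replicate 6 at 92.8 CPM. A list of 12 fibroblast and mesenchymal markers summed to between 23.9 and 25.5 CPM in the controls and to 2030, 2510 and 36.9 CPM in FTO-knockdown replicates 4, 5 and 6. Of these markers 9 reached 1 CPM in any library and 7 in the controls, and COL3A1 stayed near 0 in all of them. VIM stood at no more than 1.02 CPM in the controls and at 635, 730 and 0.292 CPM in replicates 4, 5 and 6, and TGFBI at 612, 796 and 1.97 CPM in the latter. A list of 12 leukocyte markers summed to between 34.4 and 37.7 CPM in the controls and to 115, 144 and 46.7 CPM in replicates 4, 5 and 6, with 6 reaching 1 CPM and with PTPRC and CD3E at or near 0. CD74 stood at 61.0, 75.3 and 0.0729 CPM and HLA-DRA at 15.8, 24.7 and 0.146 CPM in replicates 4, 5 and 6, and both were under 0.3 CPM in the controls. Genes of these lists were named after their values were seen. Because replicates 4 and 5 stand apart in the last 2 lists, calls are given also without replicates 4 and 5. The part of these markers in the results was not tested beyond that, and in bulk RNA fewer cells of a type and less RNA per cell cannot be told apart.

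Initiation factors bring the small ribosomal subunit and the initiator tRNA to the start codon. eIF4E binds the mRNA cap, eIF4G links it to the helicase eIF4A, eIF3 holds the small subunit on the mRNA, eIF2 carries the initiator tRNA, and eIF1, eIF1A and eIF5 take part in start codon selection. Elongation factors then deliver aminoacyl-tRNA and move the ribosome along. Many mRNAs of elongation factors, ribosomal proteins and some eIF3 subunits begin with a C followed by a run of pyrimidines. This 5′ terminal oligopyrimidine (TOP) motif is known for control of translation and stability downstream of the mTOR kinase.

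Sequences around the annotated transcript starts were read from RefSeq on GRCh38.p14 for 37 of the 45 members. EIF2S2, EIF3A, EIF3E, EIF3G, EIF3H, EIF3L, EEF1D and PABPC1 had no entry. The motif searched was a C followed by at least 4 bases that were each C or T, on the transcribed strand only, beginning within 5 bases of an annotated start on either side. Each window shown has 30 bases, the first 10 before the annotated start and the next 20 from it on, and capitals mark the run. Pyrimidines more than 5 bases before the start were not counted, so a run can reach further upstream than its capitals. The first set is shown because its members were lower in the FTO-knockdown libraries and carry the motif. EEF1B2 has 2 annotated starts, of which the one upstream, at chr2:206159599-206159628 (plus strand), has no run. The windows lay at EEF1A1 chr6:73521013-73521042 (minus strand), EEF1B2 chr2:206159885-206159914 (plus strand) and EEF2 chr19:3985444-3985473 (minus strand). Next came TPT1 chr13:45341164-45341193 (minus strand), EIF3D chr22:36529147-36529176 (minus strand) and EIF3F chr11:7987327-7987356 (plus strand). These were followed by EIF3K chr19:38619178-38619207 (plus strand), EIF3M chr11:32583821-32583850 (plus strand) and EIF2S3 chrX:24054946-24054975 (plus strand). The remaining windows were EIF1 chr17:41688875-41688904 (plus strand) and EIF4B chr12:53006446-53006475 (plus strand).
EEF1A1: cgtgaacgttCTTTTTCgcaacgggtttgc
EEF1B2 upstream start: aagtggccccagcctcgaggccgggcgtct
EEF1B2 downstream start: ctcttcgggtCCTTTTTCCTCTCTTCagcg
EEF2: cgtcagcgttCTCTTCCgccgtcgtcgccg
TPT1: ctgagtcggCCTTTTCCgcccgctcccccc
EIF3D: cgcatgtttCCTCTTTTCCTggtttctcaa
EIF3F: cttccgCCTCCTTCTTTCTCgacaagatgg
EIF3K: tttccaccaCCTCTTCCTgttcccgtcctt
EIF3M: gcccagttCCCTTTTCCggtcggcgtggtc
EIF2S3: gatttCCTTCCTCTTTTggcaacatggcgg
EIF1: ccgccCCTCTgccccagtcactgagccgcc
EIF4B: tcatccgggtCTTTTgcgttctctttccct

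The second set is shown because its members were higher in the FTO-knockdown libraries, and their windows have no run or runs of 5 to 7 bases, of which the run of EIF4G2 is as long as those of EEF1A1 and EEF2. EIF5 and EIF4G2 have 2 annotated starts each, and both are given. For EIF4G1 the start with the run is given and for EIF4G3 the start farthest upstream. The windows lay at EIF5 chr14:103334227-103334256 (plus strand), EIF5 chr14:103334878-103334907 (plus strand) and EIF4G1 chr3:184315154-184315183 (plus strand). Next came EIF4G2 chr11:10807977-10808006 (minus strand), EIF4G2 chr11:10808907-10808936 (minus strand) and EIF4G3 chr1:21176878-21176907 (minus strand). These were followed by EIF4E chr4:98929114-98929143 (minus strand).
EIF5 upstream start: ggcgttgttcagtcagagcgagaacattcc
EIF5 downstream start: ggcacCCCTCggccgtgtgtcgcttcccgg
EIF4G1: gggccgaCCCTCacttgcctgaaaccggct
EIF4G2 downstream start: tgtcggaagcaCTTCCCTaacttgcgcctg
EIF4G2 upstream start: acgccttagcgccagcagtgagtcggagct
EIF4G3: ttttccgagcagccgtcctgccggactgct
EIF4E: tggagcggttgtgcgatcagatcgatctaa

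In the windows shown, the starts of EEF1A1, EEF2 and EIF4B and the downstream start of EEF1B2 open with the run at the annotated base itself. The runs of EIF1 and of the EIF5 downstream start end just before it. EIF4A2, which was not called and whose window is not shown, also has a run of 6 bases that opens at the annotated base. The motif was present at a start of 19 of the 37 members (51.4%), against 6886 of 27305 genes (25.2%) in the whole table. A longer run, of a C and at least 6 pyrimidines, was present in 10 members (27.0%), against 9.51% of genes in that table. The table also holds genes that were not tested here, which all but EEF1G of these members were. Among tested genes with a start sequence, 3189 had the motif, 1260 had the longer run and 7698 had no run. A match is a description of these letters, and no start was measured in these cells.

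Of the 44 members tested, 16 were lower and 5 were higher in the FTO-knockdown libraries. Over all genes tested 17.9% were lower and 19.5% were higher, with a median log2 fold change of 0.01. The members' median was -0.11. Elongation factors and eIF3 subunits made up 18 of the members. Of these, 17 were tested, 10 were lower and none was higher, and their median log2 fold change was -0.32. Of the 25 other factors 5 were higher and 4 were lower, and their median was -0.01. By library, the median log2 CPM of the elongation factors and eIF3 subunits stood 0.33, 0.33 and 0.27 below the control mean in FTO-knockdown replicates 4, 5 and 6.

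The members called lower were the 4 elongation factors tested, 6 eIF3 subunits, EIF2S2, EIF2S3, EIF1, EIF4B, PABPC1 and TPT1. Those called higher were EIF5, EIF4E, EIF4G1, EIF4G2 and EIF4G3. Groups without overlap were seen in every called member, but also in EIF1AX, EIF1B, EIF2B1, EIF2B2, EIF3A, EIF3G and EIF3I, which were not called. The share of all genes without overlap is not given here, so a lack of overlap is a description only. With replicates 4 and 5 left out, so that replicate 6 alone was compared with the controls, 5 members were lower (EEF1B2, TPT1, EIF3F, EIF2S2 and EIF1) and 3 were higher (EIF5, EIF4G1 and EIF4G3), against 5.89% and 6.17% of 15713 genes. The median of the elongation factors and eIF3 subunits was -0.27 in that comparison, in which the lone library is assumed to vary like the controls.

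**Figure D1:**
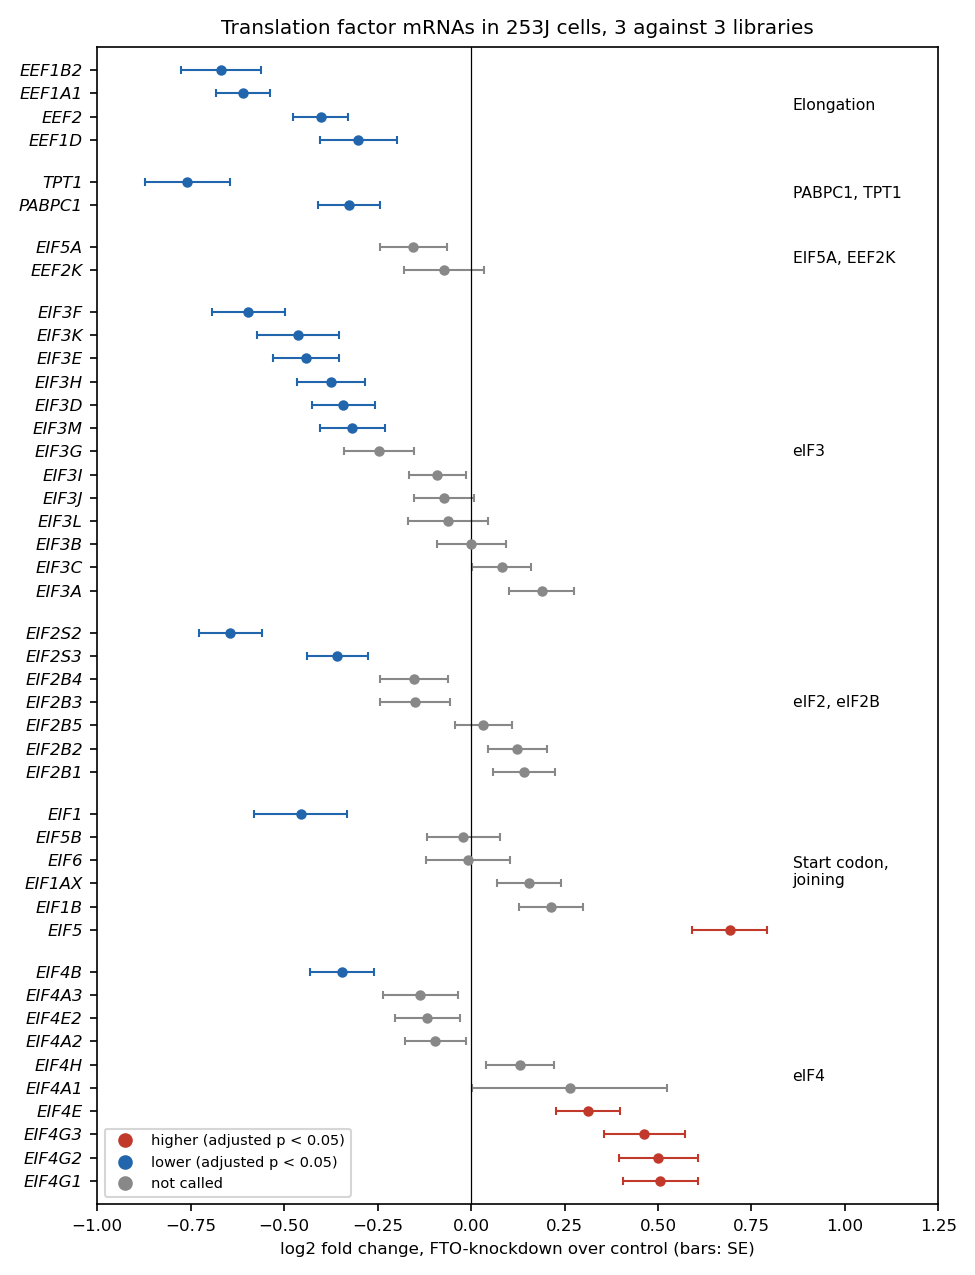
Log2 fold change of the 44 members tested, FTO-knockdown over control, in rows grouped by role. Points are edgeR estimates from 3 against 3 libraries, bars are their SE, and colours mark members past the adjusted p threshold of 0.05. All 4 elongation factors lie left of 0, the eIF3 subunits spread from -0.60 to 0.19, and the 3 EIF4G genes, EIF4E and EIF5 lie right of 0.

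Library scaling moved these counts. When library totals alone were used, the median over all genes was 0.13 and 69.6% of the calls were higher, against 52.0% with TMM. On that scale 27.3% of genes were higher and 11.9% were lower, while 10 members were higher and 12 were lower. EIF3M, EIF4B, EEF1D and PABPC1 were no longer called. The median was then -0.20 for elongation factors and eIF3 subunits and 0.11 for the other factors.

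All 4 elongation factors that could be tested were lower. EEF1A1 encodes eEF1A, which brings aminoacyl-tRNA to the ribosome, and had the highest control level per kilobase of principal transcript among the members, at 4884 CPM, followed by EEF2 at 1966 CPM. EEF1A1 stood at 11320, 11710 and 10720 CPM in the controls and at 7461, 7225 and 7413 CPM in the FTO-knockdown libraries. No library of one group reached the range of the other. The log2 fold change was -0.61 ± 0.07 (SE, adjusted p = 0.000593 from edgeR), or 65.5% of the control mean. The 49 pseudogene rows named for EEF1A1 held 6.02% of the counts of both, and adding them kept the call.

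EEF1B2 encodes eEF1B alpha, a subunit of the factor that recharges eEF1A with GTP. Its levels were 784, 954 and 769 CPM in the controls and 546, 556 and 474 CPM in the FTO-knockdown libraries. Control replicate 2 stood above the other controls, and all FTO-knockdown libraries lay below every control. The log2 fold change was -0.67 ± 0.11 (SE, adjusted p = 0.00172 from edgeR). EEF1B2 kept its call in each of the 17 alternatives tried, with log2 fold changes between -0.82 and -0.44.

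EEF2, the translocase that moves the ribosome along the mRNA, measured 6190, 6244 and 6226 CPM in the controls and 4440, 4954 and 4720 CPM in the FTO-knockdown libraries. The controls were nearly identical and the groups lay far apart, with a log2 fold change of -0.40 ± 0.07 (SE, adjusted p = 0.00314 from edgeR). EEF1D, the delta subunit of eEF1B, was measured at 148, 185 and 163 CPM in the controls and at 122, 142 and 138 CPM in the FTO-knockdown libraries. Its groups did not overlap, but the gap between them was narrow. The log2 fold change was -0.30 ± 0.10 (SE, adjusted p = 0.0417 from edgeR), and the call was lost in 8 of 17 alternatives, among them the omission of each library but FTO-knockdown replicate 6.

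EEF1G, the gamma subunit of eEF1B, had a count of 0 in every library and could not be tested. In GENCODE 29, 99.9% of its exon bases are shared on the same strand with the gene AP002990.1, whose own row held between 28 and 49 counts per library. In its usual modes HTSeq counts no read that falls in more than 1 gene. Whether this gave the 0 was not tested, and no level of EEF1G is drawn from it. EIF5A, which helps ribosomes through difficult peptide bonds, had a log2 fold change of -0.15 ± 0.09 (SE, adjusted p = 0.196 from edgeR). EEF2K, the kinase that inhibits eEF2, had a log2 fold change of -0.07 ± 0.11 (SE, adjusted p = 0.619 from edgeR). Neither passed the test.

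TPT1 and PABPC1 are no elongation or initiation factors, but both are commonly listed as TOP mRNAs. TPT1, which encodes the translationally controlled tumor protein, had 2149, 2651 and 1925 CPM in the controls and 1331, 1267 and 1375 CPM in the FTO-knockdown libraries. The controls were spread more widely than the FTO-knockdown libraries, and the groups did not overlap. With a log2 fold change of -0.76 ± 0.11 (SE, adjusted p = 0.00133 from edgeR), it had the largest fall of the 44 members. PABPC1 encodes the cytoplasmic poly(A)-binding protein, which contacts eIF4G. It stood at 2711, 2460 and 2560 CPM against 2110, 1907 and 2145 CPM. Again the groups were apart, with a log2 fold change of -0.33 ± 0.08 (SE, adjusted p = 0.012 from edgeR), and the call was lost in 4 of 17 alternatives.

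Among the mRNAs of the 13 eIF3 subunits, 6 were called lower and 7 were not called. EIF3F had the largest fall, with 329, 406 and 333 CPM in the controls and 229, 238 and 240 CPM in the FTO-knockdown libraries. The FTO-knockdown libraries lay close together and below every control. Its log2 fold change was -0.60 ± 0.10 (SE, adjusted p = 0.00196 from edgeR), and the call held in all 17 alternatives, including replicate 6 alone (-0.57).

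EIF3K measured 393, 509 and 403 CPM in the controls and 298, 332 and 317 CPM in the FTO-knockdown libraries. EIF3E measured 753, 750 and 706 CPM in the controls and 550, 495 and 582 CPM in the FTO-knockdown libraries. EIF3H measured 517, 549 and 482 CPM in the controls and 399, 366 and 429 CPM in the FTO-knockdown libraries. In these 3 subunits every FTO-knockdown library lay below every control. The log2 fold changes were -0.46 ± 0.11 for EIF3K, -0.44 ± 0.09 for EIF3E and -0.37 ± 0.09 for EIF3H (SE, adjusted p = 0.00905, 0.00423 and 0.0105 from edgeR). EIF3D, which can bind the cap of some mRNAs, and EIF3M had log2 fold changes of -0.34 ± 0.08 and -0.32 ± 0.09 (SE, adjusted p = 0.0106 and 0.017 from edgeR). Their groups did not overlap either. The EIF3M call was lost in 5 of 17 alternatives, and only EIF3F of the 6 was called when replicate 6 alone was compared with the controls.

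The remaining subunits did not pass the test. EIF3G had 275, 318 and 267 CPM in the controls and 248, 247 and 230 CPM in the FTO-knockdown libraries, which did not overlap. Its log2 fold change was -0.25 ± 0.09 (SE, adjusted p = 0.058 from edgeR). EIF3A, the largest subunit and a scaffold of the complex, had 429, 391 and 443 CPM against 512, 464 and 463 CPM, also without overlap, and a log2 fold change of 0.19 ± 0.09 (SE, adjusted p = 0.112 from edgeR). EIF3A was the single exception among the 11 tested members commonly listed as TOP mRNAs. The other 10 were lower, against 17.9% of all genes tested, and the median of the 11 was -0.40. Among the listed members, EIF3A, EIF3E, EIF3H, EEF1D and PABPC1 had no start sequence, and the untested EEF1G had no run at its start. EIF3B (0.00), EIF3I (-0.09), EIF3J (-0.07) and EIF3L (-0.06) had log2 fold changes within 0.10 of 0, each with an SE between 0.08 and 0.11. EIF3I nevertheless had groups without overlap, at 519, 518 and 536 CPM in the controls and 481, 492 and 504 CPM in the FTO-knockdown libraries. In GENCODE 29, 41.1% of the exon bases of EIF3L are shared on the same strand with AL022311.1, whose row held between 35 and 70 counts per library.

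EIF3C has a near-identical copy, EIF3CL, and reads can be split between them. EIF3C alone had a mean of 89.8 CPM in the controls and 95.1 CPM in the FTO-knockdown libraries, with a log2 fold change of 0.08 ± 0.08 (SE, adjusted p = 0.444 from edgeR). EIF3CL had means of 162 and 141 CPM, with a log2 fold change of -0.20. Summed, a choice made after seeing the data, they gave -0.09 (adjusted p = 0.385 from edgeR), so the sign of EIF3C depended on the copy.

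Grouped after their values were seen, the subunits split by their distribution among species. Of the 6 subunits that budding yeast also has, EIF3A, EIF3B, EIF3C, EIF3G, EIF3I and EIF3J, none was called, and the median log2 fold change was -0.04. Even so, EIF3G and EIF3I lay below every control in all FTO-knockdown libraries, and EIF3A lay above. Of the 7 subunits absent from budding yeast, 6 were lower, EIF3L being the exception, and the median was -0.37. In replicates 4, 5 and 6 the median of the latter stood 0.37, 0.38 and 0.34 below the control mean on the log2 CPM scale. No test was made of this grouping, since the values had chosen it.

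**Figure D2:**
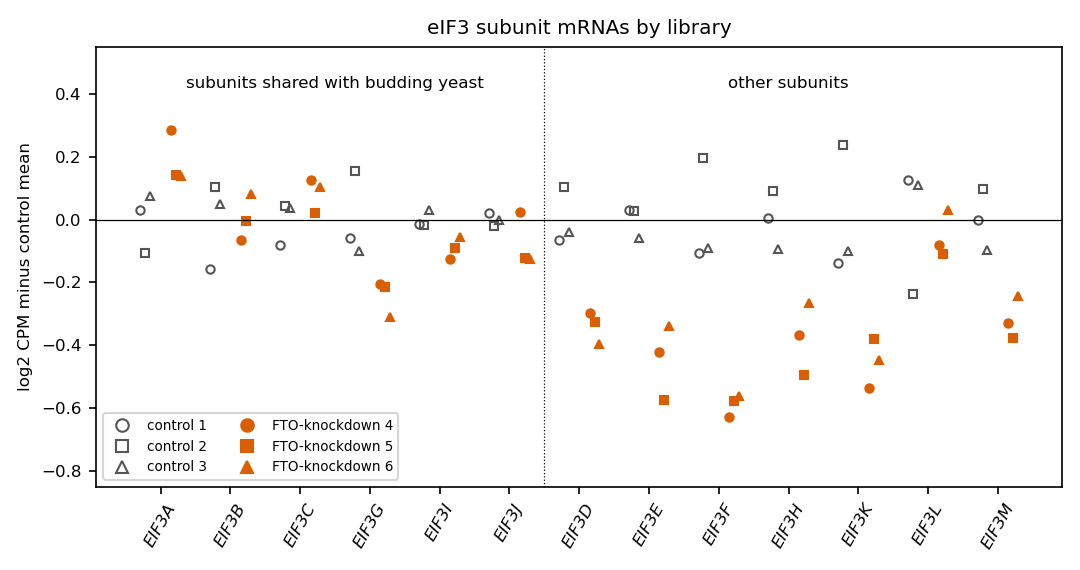
Log2 CPM of each eIF3 subunit minus its control mean, by library, with control libraries as open and FTO-knockdown libraries as filled symbols. The dotted line parts the 6 subunits shared with budding yeast from the 7 others, a grouping made after the values were seen. In EIF3D, EIF3E, EIF3F, EIF3H, EIF3K and EIF3M all FTO-knockdown libraries lie below all controls. The same holds for EIF3G and EIF3I, which were not called, and in EIF3A all lie above the controls.

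eIF2, the carrier of the initiator tRNA, has 3 subunits, of which the beta and gamma subunits are members. EIF2S2, the beta subunit, had 426, 456 and 406 CPM in the controls and 290, 270 and 265 CPM in the FTO-knockdown libraries. The groups were far apart, and the log2 fold change was -0.64 ± 0.08 (SE, adjusted p = 0.00085 from edgeR), a call kept in all 17 alternatives. EIF2S3, the gamma subunit, had 385, 379 and 358 CPM against 297, 275 and 303 CPM. It fell in every FTO-knockdown library, with a log2 fold change of -0.36 ± 0.08 (SE, adjusted p = 0.00782 from edgeR). The alpha subunit gene EIF2S1, the phosphorylated subunit of the integrated stress response, moved the other way, from 140, 141 and 147 CPM to 210, 198 and 183 CPM. Its log2 fold change was 0.46 ± 0.08 (SE, adjusted p = 0.0029 from edgeR), so the mRNAs of the 3 subunits did not change together.

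None of the 5 EIF2B genes, which encode the factor that recharges eIF2 with GTP, was called. Their log2 fold changes ran from -0.15 in EIF2B3 and EIF2B4 to 0.14 in EIF2B1, with SE between 0.08 and 0.09. EIF2B1 had 65.2, 71.1 and 70.4 CPM in the controls and 77.3, 73.1 and 77.7 CPM in the FTO-knockdown libraries, which did not overlap, while EIF2B5 had means of 80.9 and 82.7 CPM and overlapping groups.

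Among the factors of start codon selection and subunit joining, EIF5 and EIF1 moved in opposite directions. EIF5, which stimulates GTP hydrolysis by eIF2 at the start codon, had 163, 163 and 171 CPM in the controls and 287, 284 and 230 CPM in the FTO-knockdown libraries. Replicate 6 rose less than replicates 4 and 5, and every FTO-knockdown library was above every control. EIF5 had the largest rise of the members, with a log2 fold change of 0.69 ± 0.10 (SE, adjusted p = 0.00118 from edgeR), and 0.48 in replicate 6 alone (adjusted p = 0.0338 from edgeR).

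EIF1, the gatekeeper that opposes initiation at poor start codons, had 675, 730 and 633 CPM in the controls and 524, 564 and 398 CPM in the FTO-knockdown libraries. Here replicate 6 was the lowest library, and the groups did not overlap. The log2 fold change was -0.46 ± 0.12 (SE, adjusted p = 0.0172 from edgeR), the value for replicate 6 alone was -0.77 (adjusted p = 0.0109 from edgeR), and the call was lost when any single control was left out. Its paralogue EIF1B had 40.8, 39.9 and 41.6 CPM against 48.2, 48.4 and 45.3 CPM, with no overlap and a log2 fold change of 0.21 ± 0.09 (SE, adjusted p = 0.0702 from edgeR). EIF1AX (0.15), EIF5B (-0.02) and EIF6 (-0.01) did not pass the test.

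Of the 10 eIF4 genes, 4 were higher, 1 was lower and 5 were not called. All 3 EIF4G genes, which encode the scaffold of the cap-binding complex and its relatives, were higher. EIF4G1, the main scaffold, had 578, 554 and 693 CPM in the controls and 825, 861 and 907 CPM in the FTO-knockdown libraries. EIF4G2, a relative that lacks the eIF4E-binding part, had 629, 501 and 654 CPM against 873, 831 and 820 CPM. In both genes every FTO-knockdown library exceeded every control, and the controls were the more variable group. The log2 fold changes were 0.51 ± 0.10 for EIF4G1 and 0.50 ± 0.11 for EIF4G2 (SE, adjusted p = 0.00409 and 0.00552 from edgeR).

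EIF4G3, the other full-length scaffold, had 91.4, 72.8 and 94.8 CPM in the controls and 123, 110 and 123 CPM in the FTO-knockdown libraries. It was higher by a log2 fold change of 0.46 ± 0.11 (SE, adjusted p = 0.00852 from edgeR). EIF4E, the cap-binding protein, had 88.7, 79.1 and 92.1 CPM against 112, 105 and 106 CPM. The groups did not overlap, and the log2 fold change was 0.31 ± 0.09 (SE, adjusted p = 0.0169 from edgeR). In the fit that corrected for transcript length and GC content, EIF4E turned to -0.07 (adjusted p = 0.441) and EIF4G3 stood at 0.20 (adjusted p = 0.0681), while EIF4G1 (0.37) and EIF4G2 (0.33) stayed called in edgeR. The EIF4E call was also lost when control replicate 1, control replicate 2 or FTO-knockdown replicate 4 was left out.

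EIF4B, which stimulates the helicase and is listed as a TOP mRNA, was the only eIF4 gene that was lower. It had 767, 772 and 725 CPM in the controls and 625, 544 and 614 CPM in the FTO-knockdown libraries, and no library crossed between the groups. Its log2 fold change was -0.34 ± 0.09 (SE, adjusted p = 0.0116 from edgeR). The helicase gene EIF4A2 had a log2 fold change of -0.10 ± 0.08 (SE, adjusted p = 0.374 from edgeR), and EIF4A3, EIF4E2 and EIF4H did not pass the test either, with -0.14, -0.12 and 0.13.

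EIF4A1, usually an abundant helicase mRNA, held only between 2.11 and 4.03 CPM here, which limits what its row can show. In GENCODE 29, 41.1% of its exon bases are shared on the same strand with AC016876.2 and 29.8% with SENP3-EIF4A1. Its 13 named pseudogene rows held 73.4% of the counts of both. The log2 fold change of 0.26 ± 0.26 (SE, adjusted p = 0.446 from edgeR) therefore rests on few counts, and its sign changed when the pseudogene rows were added (-0.02).

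**Figure D3:**
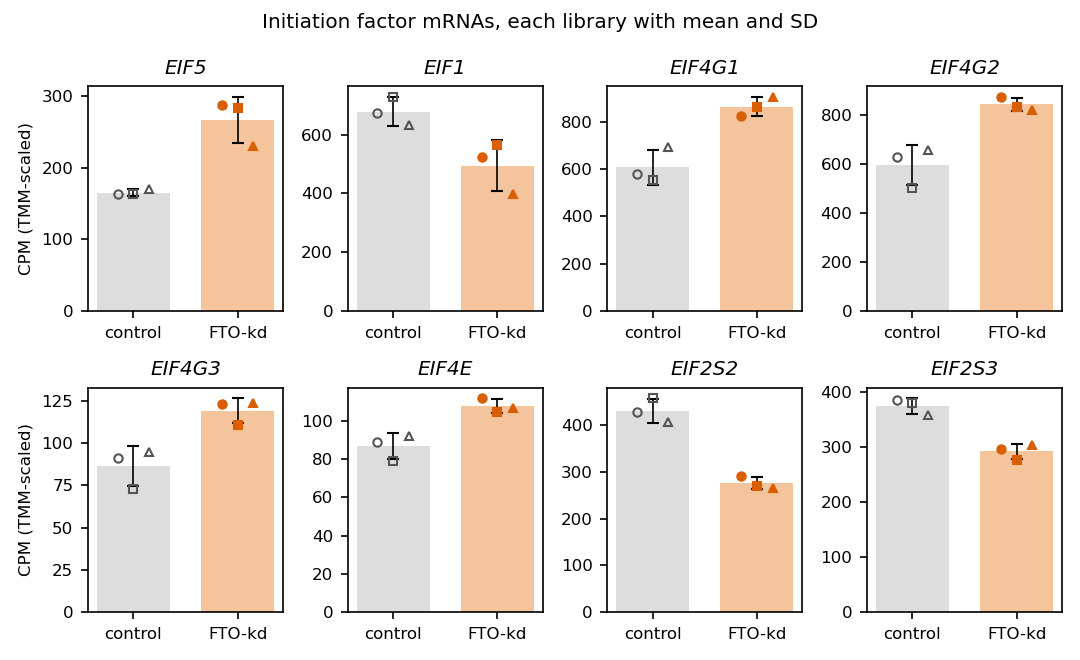
CPM of 8 initiation factor genes in each library (points), with the group mean as a bar from 0 and the SD as its error bar, 3 libraries per group. EIF5, EIF4E and the 3 EIF4G genes are higher in every FTO-knockdown library than in any control, and EIF1, EIF2S2 and EIF2S3 are lower.

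The calls were then set against the pyrimidine runs shown above. Of the 19 members with the motif at an annotated start, all of them tested, 11 were lower and 3 were higher, with a median log2 fold change of -0.34. Of the 17 tested members that had an entry but no such run, none was lower and 2 were higher (EIF4E and EIF4G3), with a median of 0.03. With the longer run, 9 of 10 members were lower and EIF4G2 was higher, at 1 of whose 2 starts the run is found, and the median was -0.43. Without the longer run 2 of 26 members were lower (EIF1 and EIF4B) and 4 were higher. When the window was widened to 10 bases, 23 members held the motif, of which 11 were lower and 4 were higher, and their median was -0.12, against 0.00 in the 13 tested members without it.

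The same runs were counted over all genes with an entry. Of 7698 tested genes with no run, 16.3% were lower, against 20.4% of 3189 genes with the motif and 25.3% of 1260 genes with the longer run. With the members and the ribosomal protein genes left out, these shares were 16.3%, 18.8% and 21.8%. In that smaller set 22.1% of genes with no run were higher, against 20.4% with the motif and 19.3% with the longer run. Their median log2 fold changes were 0.0412, 0.0176 and 0.002. Outside the members and ribosomal protein genes, those with a run were about as often higher as lower, whereas those with no run were more often higher. These differences were not tested. No test was made between the members and the other genes with a run. EIF3C, EIF3J, EIF4A2, EIF4E2 and EEF2K held the motif and did not pass the test, with log2 fold changes between -0.12 and 0.08.

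**Figure D4:**
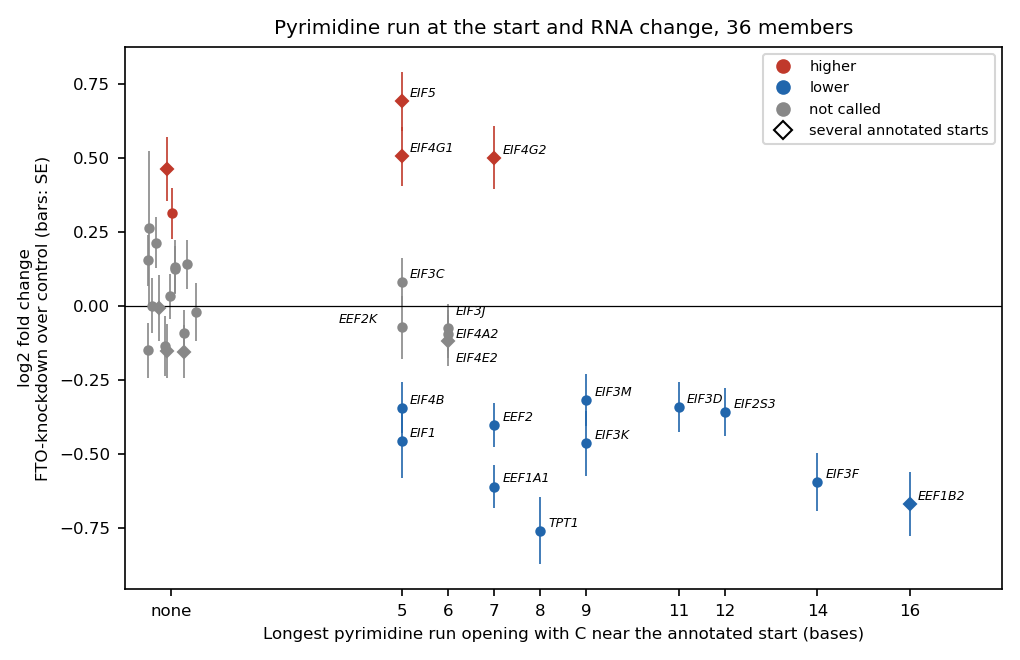
Log2 fold change of 36 tested members with a start sequence (FTO-knockdown over control, bars are SE) against the length in bases of the longest pyrimidine run that opens with C within 5 bases of an annotated start. Members without a run are spread sideways for sight only. From 8 bases on, all members lie below 0, EEF1B2 with its run at 1 of 2 starts. EIF3C, with a run of 5 bases at its single start, and EIF5, EIF4G1 and EIF4G2, with runs of 5 to 7 bases at 1 of several starts, lie above 0.

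Transcript length went along with these values. The 5 members called higher had principal transcripts of up to 11.5 kb with a median of 5.67 kb, and the 16 called lower had 0.864 to 5.05 kb with a median of 2.52 kb. Over 14887 genes tested, which are not independent replicates, Spearman's rho between log2 fold change and length was 0.40, and with GC content it was -0.27. Within the 44 members, rho with length was 0.36. After correction for length and GC content the median of elongation factors and eIF3 subunits was -0.19 and that of the other factors -0.02, and 17 of the 21 called members kept their call. EIF3K, EIF4G3 and EEF1D were lost, and EIF4E changed sign. In this fit EIF1B (0.38) was newly called higher. EIF5B (-0.31), which has no run at its start, and EEF2K (-0.34), which has one, were newly called lower. The part of length in the other calls was not tested beyond this fit.

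Among 28 further genes of translation, all tested, 8 were higher and 6 were lower, with a median log2 fold change of 0.05. Over all genes tested the shares were 19.5% higher and 17.9% lower, and no test was made between this list and other genes. EIF4EBP1, a repressor that binds eIF4E, was measured at 318, 432 and 298 CPM in the controls and at 129, 131 and 121 CPM in the FTO-knockdown libraries. The groups lay far apart, and the log2 fold change was -1.46 ± 0.13 (SE, adjusted p = 0.000189 from edgeR), larger than that of any member. Its relative EIF4EBP2, named after its values were seen, had 0.41 ± 0.10 (SE, adjusted p = 0.0128 from edgeR). EEF1A2, the paralogue of EEF1A1, was also lower, with 1689, 1916 and 1680 CPM against 1026, 1105 and 1262 CPM and a log2 fold change of -0.64 ± 0.10 (SE, adjusted p = 0.00153 from edgeR).

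DHPS, the enzyme that starts the hypusine modification of eIF5A, and PDCD4, an inhibitor of eIF4A, were lower, with log2 fold changes of -0.57 ± 0.09 and -0.52 ± 0.10 (SE, adjusted p = 0.0018 and 0.00303 from edgeR). EIF1AD, LARP4, a protein that binds poly(A) and stabilizes mRNA, and EIF5A2, the paralogue of EIF5A, were higher, with 0.80 ± 0.12, 0.73 ± 0.08 and 0.68 ± 0.12 (SE, adjusted p = 0.00129, 0.000537 and 0.00246 from edgeR). LARP1, which binds TOP mRNAs, had a log2 fold change of 0.08 ± 0.10 (SE, adjusted p = 0.559 from edgeR) and overlapping groups, at 323, 290 and 363 CPM in the controls and 350, 330 and 348 CPM in the FTO-knockdown libraries. It was named after its values were seen.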

How the data were processed

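The 3 control and 3 FTO-knockdown RNA-seq libraries of 253J cells were grouped by their labels. The authors deposited 1 file of counts per library, whole counts of reads per gene without normalization. Alignment with TopHat2 2.0.11, counting with HTSeq, and hg19 and GRCh37 as builds, are named in the submitters' processing notes. Not given in the sources used here are the version of HTSeq, its strand setting and the gene annotation, so reads of antisense genes cannot be told apart.

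Of 60483 gene IDs, 56321 (93.1%) were matched to a symbol. Genes with low counts were removed (filterByExpr, minimum count 10, minimum total 15), libraries were scaled by TMM, and edgeR 4.0.16 in R 4.3.3 fitted a quasi-likelihood model with group as its only term. Tests were two-sided, with Benjamini-Hochberg adjustment over 14965 genes and a threshold of 0.05. The SE is the size of the log2 fold change divided by the square root of F. Medians by library use log2(CPM + 0.5). The procedure was tested on simulated data. Lengths, GC content and overlaps came from GENCODE 29 on GRCh38, matched by ID without version, with the principal transcript of median length, which does not settle the build of the counting. Start sequences came from RefSeq on GRCh38.p14.

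The members, the lists and the alternatives were chosen with earlier results of these data known. All members could be named, and beside them the 4 largest calls in each direction of the further translation genes, and other genes are said to be named after their values were seen. Alternatives were other scalings, other filters, DESeq2 1.42.0, limma 3.58.1 voom, leaving out libraries, a correction for length and GC content, and adding pseudogene rows. The sum of EIF3C and EIF3CL was added after seeing the data.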

Additional observations from a re-analysis of the deposited data

How the results depend on the processing

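No paired analysis was possible because the control replicates are numbered 1 to 3 and the FTO-knockdown replicates 4 to 6, so the groups share no number. Of the 21 called members, all 21 kept their call with DESeq2-type size factors, upper-quartile factors, TMM without ribosomal protein genes and members, DESeq2, a minimum of 10 counts per library, limma voom, added pseudogene rows and without FTO-knockdown replicate 6, and 20 did with no filter, PABPC1 being lost. TPT1, EEF1B2, EIF2S2, EIF3F, EIF4G1 and EIF5 were called in all 17 alternatives. EIF4A1 and EEF1G have few counts or none, and what their overlapping genes and pseudogenes contribute to that was not tested.

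With library totals alone, 1787 genes were lower, 10 members were higher, and the medians were -0.20 for elongation factors and eIF3 subunits and 0.11 for the other factors. Upper-quartile factors put the latter at -0.034. Of the 12 commonly listed TOP mRNAs, taken in place of elongation factors and eIF3 subunits, the 11 tested had a median of -0.40. The correction for length and GC content put elongation factors and eIF3 subunits at -0.19. Without FTO-knockdown replicates 4 and 5, 970 genes were higher and 926 lower, 3 members were higher and 5 lower, and the other factors had a median of 0.0407. Leaving out single libraries gave 1383 to 3826 higher and 1589 to 2928 lower genes, 3 to 5 members higher and 11 to 16 lower, medians of -0.38 to -0.27 for elongation factors and eIF3 subunits, and of -0.0555 to 0.0324 for the other factors. The lowest count of members, 3 higher and 11 lower, came without control replicate 1, where EIF1, EIF3H, EIF3M, EIF4B, EIF4E, EIF4G3 and EEF1D were lost, and fewer libraries entered each of these fits.

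Among called members only EIF4E changed sign, to -0.0662 with the length and GC correction, and the cause was not tested. The other sign changes were in members that were not called. They were, with the length and GC correction, EIF1AX (-0.052), EIF2B2 (-0.0633), EIF3G (0.0813), EIF3I (0.049), EIF4E2 (0.0163), EIF5A (0.0532) and EIF6 (0.28). With library totals they were EIF3I (0.0293), EIF3J (0.0477), EIF3L (0.0555), EIF4A2 (0.0248), EIF4E2 (0.0057), EIF5B (0.10), EIF6 (0.11) and EEF2K (0.0476). Without replicates 4 and 5 they were EIF3L (0.0232), EIF4A1 (-0.31), EIF4A3 (0.0407) and EIF5B (0.0959). EIF3B was -0.0032 with DESeq2-type size factors, -0.0236 with upper-quartile factors, -0.0073 with TMM without ribosomal protein genes and members and -0.0034 in DESeq2. EIF3C was -0.0941 with EIF3CL added, and EIF4A1 was -0.0233 with its pseudogenes. With single libraries left out, EIF3B ran from -0.0836 to 0.0534, EIF5B from -0.0955 to 0.0655, EIF6 from -0.13 to 0.0595 and EEF2K from -0.14 to 0.006. Members called only in an alternative were EIF3G, lower (upper-quartile factors and DESeq2), and EIF1AX, EIF1B, EIF2B1, EIF2B2 and EIF3A, higher (library totals). With the length and GC correction EIF1B (0.38) was called higher, and EIF5B (-0.31) and EEF2K (-0.34) were called lower. The causes were not tested.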
